A study of Mus musculus with 217 samples.

Results

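Rab GTPases are small membrane-bound switches that give each organelle of a cell its identity. In the GTP-bound state a Rab sits on a membrane and recruits effectors that tether, move or fuse vesicles, and in the GDP-bound state it returns to the cytosol. In neurons, Rabs of the Rab3 group sit on synaptic vesicles, Rabs of the Rab5, Rab4 and Rab11 groups run endocytosis and recycling, and Rabs of the Rab1, Rab2 and Rab6 groups serve the endoplasmic reticulum (ER) and Golgi. The members were all protein-coding genes whose symbol is "Rab" followed by a number and at most 1 letter. The GENCODE M21 annotation (GRCm38) holds 59 such genes, of which 46 were among the 12270 genes of any table: 45 in the nucleus accumbens, 46 in the dorsomedial striatum and 42 in the dorsolateral striatum. Rab13 was listed only in the dorsomedial striatum, and Rab27a, Rab34 and Rab3d in that region and the accumbens. The 13 members in no table were Rab17, Rab19, Rab20, Rab25, Rab29, Rab32, Rab37, Rab38, Rab39, Rab42, Rab44, Rab4b and Rab7b.

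The series measured bulk RNA in tissue punches from C57BL/6J mice of both sexes, about 10 weeks old, with 12 h of light and 12 h of dark. The 93 animals carried no transgene or treatment in the labels, and were killed at Zeitgeber times (ZT, hours after lights on) 2, 6, 10, 14, 18 and 22. There were 77 libraries of the nucleus accumbens (NAc, 37 female and 40 male), 70 of the dorsomedial striatum (DMS, 34 and 36) and 70 of the dorsolateral striatum (DLS, 35 and 35), with 11 to 14 libraries per region and time. Values are log2 of normalised read counts, scaled by the authors in each region alone, so that levels were not tested between regions.

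All 10 markers of striatal projection neurons were measured in each region. The summed level (log2) of cortical excitatory neuron markers ran from 6.34 to 14.29 in NAc, 6.79 to 12.91 in DMS and 7.29 to 13.94 in DLS. That of choroid plexus markers ran from 5.86 to 9.59, 7.27 to 16.17 and 5.16 to 9.27. Whether these spreads between libraries bear on the Rab values was not tested. Reads over the listed genes came to 35.7 to 57.5 M per library in DMS and 29.7 to 56.8 M in DLS, and are unknown in NAc. The DMS libraries stood apart in 2 classes by the share of their signal taken by the mitochondrial ribosomal RNAs mt-Rnr1 and mt-Rnr2. In 37 libraries the share was 19.02 to 29.9%, in the other 33 it was 35.3 to 52.6%, and none lay between. From ZT2 to ZT22 the high class held 3 of 12, 4 of 12, 7 of 11, 7 of 11, 10 of 12 and 2 of 12 libraries, and 26 of its 33 libraries came from animals numbered 31 or higher against 0 of 37 in the low class. A DMS rhythm call described below is therefore given without and with the share as a covariate. In bulk tissue, fewer cells of a type and less RNA per cell cannot be told apart.

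Levels were compared between genes per kb of exon, as log2 of the normalised count per kb. Rab3a, the main Rab of synaptic vesicles, had the highest level in each region: 11.77 ± 0.17 (SD, n = 77) in NAc, 11.91 ± 0.11 (SD, n = 70) in DMS and 11.72 ± 0.11 (SD, n = 70) in DLS. Next in each region came 4 genes in varying order: Rab6b and Rab6a, which act in traffic from and to the Golgi (Rab6b mainly in neurons), Rab2a of the ER to Golgi step, and Rab7 of late endosomes. Their levels ran from 10.63 (Rab7) to 11.24 (Rab2a) in NAc, from 10.94 to 11.66 (Rab6b) in DMS and from 10.62 to 11.25 in DLS. In NAc, Rab2a (11.24 ± 0.11), Rab6b (11.21 ± 0.22) and Rab6a (11.16 ± 0.19) lay within 1 SD of each other. The highest early endosome member was Rab5c in each region (9.87, 9.99 and 9.73 in NAc, DMS and DLS). Rab15 led the recycling endosome group (9.79, 10.05 and 9.34), and Rab10, which carries cargo from the Golgi to the plasma membrane, led the post-Golgi group (9.86, 10.15 and 9.87). The lowest level per kb belonged to Rab3d in NAc (4.60) and DMS (4.69) and to Rab36 in DLS (5.01). The range from highest to lowest member was 144-fold in NAc, 149-fold in DMS and 105-fold in DLS.

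**Figure D1:**
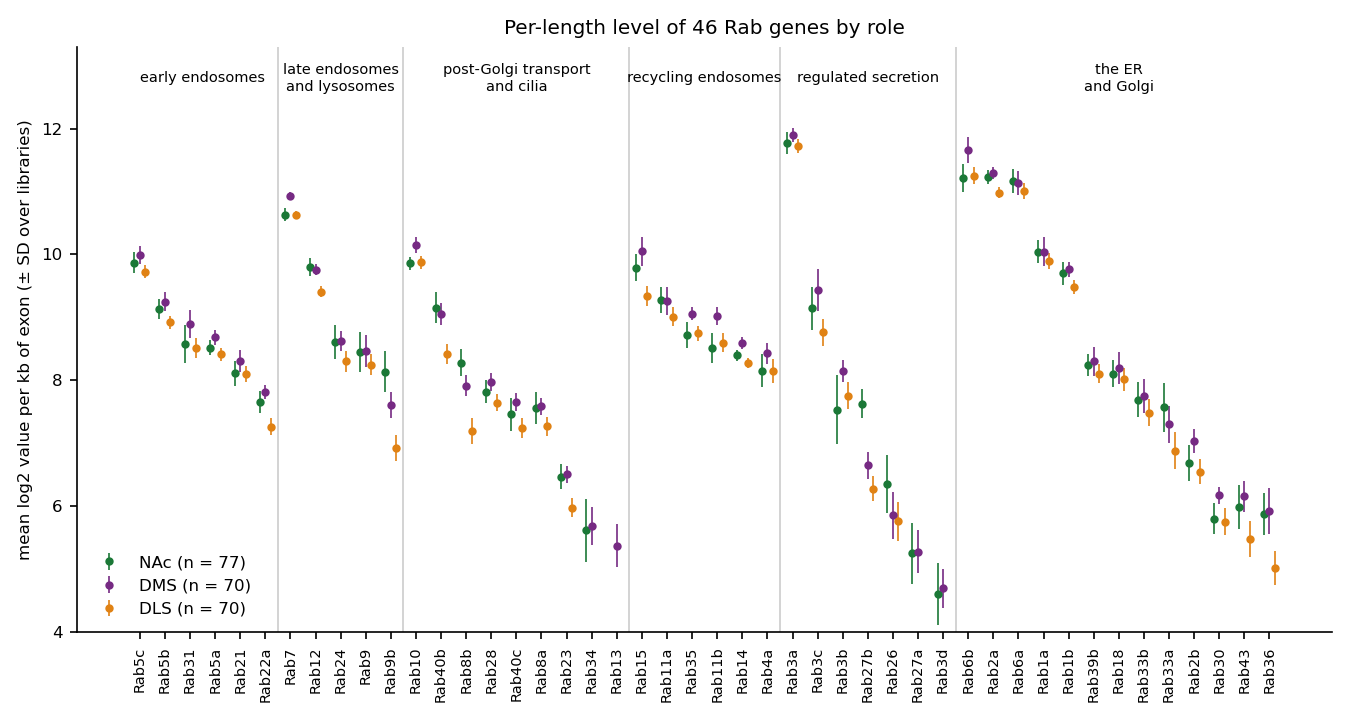
Mean log2 value per kb of exon (vertical axis) of the 46 Rab genes, grouped by role, in NAc (n = 77), DMS (n = 70) and DLS (n = 70); bars are the SD over libraries. Rab3a stood highest in each region at 11.72 to 11.91, and the lowest members lay at about 5 or less.

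Between libraries, 34 of 45 members in NAc, 35 of 46 in DMS and 34 of 42 in DLS varied less than the median gene. The comparison was not matched for expression level. Over libraries, the members had a median SD (log2) of 0.22 in NAc, 0.18 in DMS and 0.15 in DLS, where all genes had 0.32, 0.24 and 0.20. Rab7 had the smallest SD of the members in DMS (0.064) and DLS (0.065), and Rab14, a Rab of recycling endosomes, in NAc (0.092). The largest SD was that of Rab3b in NAc (0.55) and of Rab26, a Rab of secretory granules and synaptic vesicles, in DMS (0.38) and DLS (0.31).

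Daily rhythm was tested in limma with a 24 h cosine, and a gene was called at a Benjamini-Hochberg adjusted p under 0.05 over all genes of its table. Amplitudes are on the log2 scale, from the fitted mean to the fitted peak, and the fold runs from fitted trough to fitted peak. In DLS 11 of 42 members (26.2%) were called, against 21% of all genes. In DMS 22 of 46 (47.8%) were called, against 51.3% of all genes, and with the share as a covariate 10 of 46 (21.7%), against 28.6%. In NAc limma called 0 of 45, against 2.56% of all genes. There, 8 of 45 members had an unadjusted p under 0.05, against 1791 of all 11867 genes. No count-based tool was run in NAc because whole reads could not be recovered. With equal-sum scaling, which sets the summed signal outside the ribosomal RNAs equal in all libraries, 8 members were called in DMS with the share (against 30.1% of all genes), 4 of them among the 10, and 5 in DLS (against 13%). With time as 6 levels 6 were called in DLS (against 21.1%). Within the low DMS class alone 3 members were called, namely Rab33a, Rab3c and Rab6b (against 7.83% of all genes), and within the high class alone 3, namely Rab1b, Rab26 and Rab33a (against 15%). The members' median amplitude was 0.050, 0.076 and 0.043 in NAc, DMS and DLS, beside 0.075, 0.11 and 0.067 over all genes.

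Rab33a, a Golgi Rab with a known role in axonal vesicle transport (ENSMUSG00000031104, chrX:48519285-48530232, plus strand), was called in DMS and in DLS, with a peak late in the light phase in both. In DMS its lowest, median and highest values were 6.93, 7.26 and 7.59 at ZT2, 7.22, 7.57 and 7.97 at ZT6, 7.32, 7.67 and 8.40 at ZT10, 7.17, 7.69 and 7.94 at ZT14, 6.95, 7.45 and 7.81 at ZT18, and 6.96, 7.42 and 7.75 at ZT22. In DLS they were 6.57, 6.85 and 7.79 at ZT2, 6.75, 7.20 and 7.47 at ZT6, 6.95, 7.35 and 7.74 at ZT10, 6.68, 7.15 and 7.54 at ZT14, 6.21, 6.99 and 7.34 at ZT18, and 6.63, 7.00 and 7.51 at ZT22. In both regions the median was lowest at ZT2 and highest at ZT10 or ZT14, and the ranges of all times overlapped. The DMS fit with the share gave an amplitude of 0.22 ± 0.046 (SE, n = 70), a peak at ZT10.7, a fold of 1.36 and an adjusted p of 0.000537 (limma). Without the share the amplitude was 0.24 and the adjusted p 7.83e-05. Rab33a was also called within each DMS class, with an amplitude of 0.22 and a peak at ZT11.7 in the low class (n = 37, limma adjusted p = 0.0356) and 0.27 and ZT10.2 in the high class (n = 33, 0.0234). In DLS the amplitude was 0.18 ± 0.046 (SE, n = 70), the peak at ZT9.50, the fold 1.28 and the adjusted p 0.00932 (limma). The DLS call was lost with equal-sum scaling (adjusted p = 0.0508). In NAc the amplitude was 0.075 with an adjusted p of 0.760.

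Rab26 (ENSMUSG00000079657, chr17:24527241-24534210, minus strand) followed a similar course. In DMS its lowest, median and highest values were 6.38, 7.07 and 7.58 at ZT2, 6.94, 7.44 and 7.97 at ZT6, 6.97, 7.81 and 8.03 at ZT10, 7.11, 7.63 and 7.76 at ZT14, 6.13, 7.22 and 7.70 at ZT18, and 7.00, 7.22 and 7.70 at ZT22. In DLS they were 6.40, 7.09 and 7.55 at ZT2, 6.68, 7.24 and 7.75 at ZT6, 7.06, 7.49 and 7.85 at ZT10, 6.96, 7.41 and 7.86 at ZT14, 6.73, 7.23 and 7.80 at ZT18, and 6.71, 7.17 and 7.57 at ZT22. In both tables the median was highest at ZT10 and lowest at ZT2, again with overlapping ranges. The amplitude was 0.27 in DMS without the share (peak ZT10.8, limma adjusted p = 0.000745), 0.25 ± 0.060 (SE, n = 70) with it (peak ZT10.6, fold 1.42, 0.00291) and 0.18 ± 0.049 (SE, n = 70) in DLS (peak ZT12.4, fold 1.28, 0.0138). Within the DMS classes it was called in the high class (0.35, n = 33, limma adjusted p = 0.0204) and not in the low class (0.21, n = 37, 0.161). In NAc the amplitude was 0.25 ± 0.069 (SE, n = 77) with a peak at ZT11.8, and the limma adjusted p of 0.0641 missed the threshold. With the share as a covariate in NAc it was 0.0478, and it passed in 8 of the 77 fits that left out 1 library. The DLS call was lost with equal-sum scaling (0.0704) and with time as 6 levels (0.0550). Exons of Rab26 overlap those of Traf7 on the same strand, so reads there cannot be told apart. In DMS with the share Traf7 had an amplitude of 0.14, a peak at ZT13.1 and an adjusted p of 0.000273, and in DLS it was not called (0.743).

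**Figure D2:**
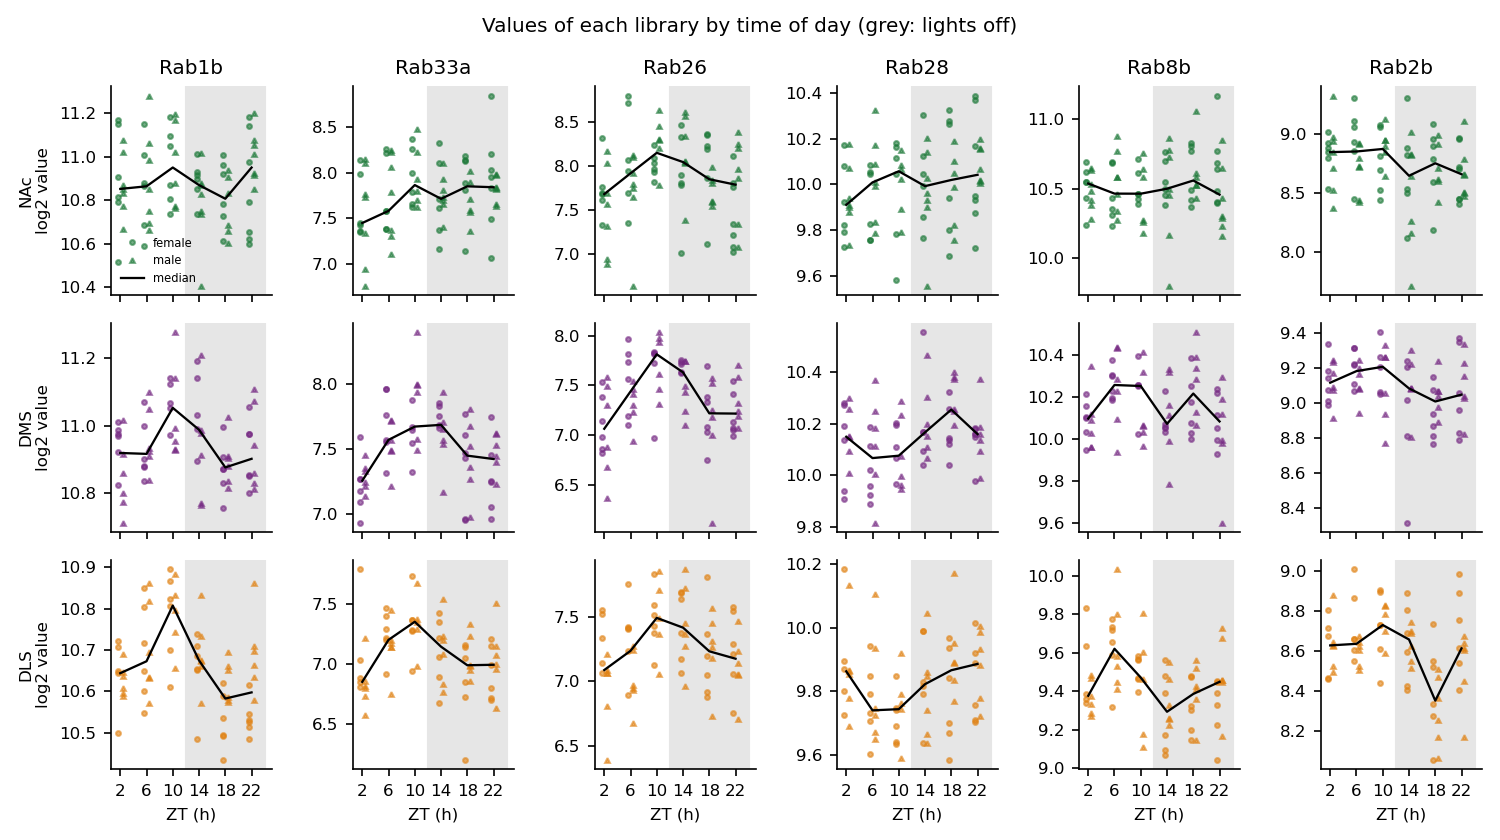
Log2 value of each library (circles female, triangles male) against ZT for the 6 members with the smallest adjusted rhythm p over the fits of NAc, DLS and DMS with the share, drawn for NAc, DMS and DLS; the line joins the medians and grey marks lights off. The medians of Rab33a and Rab26 in DMS and DLS were lowest at ZT2, and that of Rab1b peaked at ZT10, while the ranges of neighbouring times overlapped throughout.

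Among the ER and Golgi Rabs, 5 of 13 were called in DLS (all with a peak in the light), 8 of 13 in DMS and 3 of 13 in DMS with the share. Over all genes the shares called were 21%, 51.3% and 28.6%, and 52.1% of all DLS calls peaked in the dark. Rab1b (ENSMUSG00000024870, chr19:5099205-5107072), which acts in ER to Golgi transport, had the smallest adjusted p of any member in DLS. Its lowest, median and highest DLS values were 10.50, 10.64 and 10.72 at ZT2, 10.55, 10.67 and 10.86 at ZT6, 10.61, 10.81 and 10.90 at ZT10, 10.49, 10.68 and 10.83 at ZT14, 10.44, 10.58 and 10.69 at ZT18, and 10.49, 10.60 and 10.86 at ZT22. The median at ZT10 stood above those of the other times, although the ranges overlapped. The amplitude was small, 0.087 ± 0.016 (SE, n = 70), with a peak at ZT8.92, a fold of 1.13 and an adjusted p of 0.000199 (limma). The call was lost with equal-sum scaling (0.0775). In DMS Rab1b was called without the share (0.067, peak ZT10.6, 0.0127) and not with it (0.050, 0.0576). Within the classes its amplitude was 0.096 in the high class (n = 33, peak ZT8.41, limma adjusted p = 0.0342) and 0.022 in the low class (n = 37, 0.753). Rab2b (ENSMUSG00000022159, chr14:52261759-52279545), a paralog of Rab2a, dipped at ZT18 in DLS. Its lowest, median and highest values there were 8.46, 8.63 and 8.88 at ZT2, 8.50, 8.64 and 9.01 at ZT6, 8.44, 8.73 and 8.91 at ZT10, 8.40, 8.66 and 8.89 at ZT14, 8.06, 8.35 and 8.73 at ZT18, and 8.17, 8.61 and 8.98 at ZT22. The fit gave an amplitude of 0.12 ± 0.031 (SE, n = 70), a peak at ZT7.07 and an adjusted p of 0.00688 (limma), which rose to 0.113 with equal-sum scaling. In DMS Rab2b was called without the share (0.086, peak ZT5.45, limma adjusted p = 0.0462) and not with it (0.073, 0.0920). Its exons overlap those of Tox4 on the opposite strand, and whether reads were counted by strand is not given in the sources used here. Rab6b peaked at ZT1.54 in DLS (amplitude 0.084, adjusted p = 0.00756, and 0.0521 with equal-sum scaling). In DMS Rab6b was called without the share (0.15, peak ZT0.84, limma adjusted p = 0.000502) and not with it. Rab30, a Golgi Rab, peaked at ZT7.50 in DLS (0.11, 0.0313), and its call was lost without any 1 of 3 libraries, one of them the male ZT6 library of animal 13 (0.0624), which had the lowest mitochondrial share of the DLS libraries (13.2%). The Rab30 call was also lost with equal-sum scaling (0.0773), with limma-voom on recovered reads (0.0786) and with time as 6 levels (0.169).

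Among the Rabs of regulated secretion, 3 of 5 were called in DLS, 2 of 7 in DMS and 2 of 7 in DMS with the share. Over all genes the shares called were 21%, 51.3% and 28.6%. Rab27b, which docks secretory granules and exosome-bearing compartments at the plasma membrane, peaked near the end of the dark phase. Its amplitude was 0.12 ± 0.031 (SE, n = 70) in DLS (peak ZT23.8, adjusted p = 0.00934), and the call was lost with time as 6 levels (0.0626). In DMS it was not called without the share (0.085, peak ZT18.3, 0.0914) and was called with it (0.10 ± 0.029, SE, n = 70, peak ZT22.4, limma adjusted p = 0.0135). In NAc it was 0.11 ± 0.035 (SE, n = 77) with a peak at ZT21.0 and an adjusted p of 0.120 (limma). Rab3c, a vesicle Rab related to Rab3a, was called in DLS (0.11 ± 0.032, peak ZT0.85, 0.0204) and lost there with the share as covariate (0.0731) and with time as 6 levels (0.0516). In DMS its amplitude of 0.23 (peak ZT1.14, adjusted p = 0.000482) became 0.053 (0.154) with the share. Within the low class it was called, with an amplitude of 0.11 and a peak at ZT0.58 (n = 37, limma adjusted p = 0.0123), and within the high class it was not (0.073, n = 33, 0.430). Rab3a itself was not called: its amplitude was 0.040, 0.022 and 0.018 in NAc, DMS and DLS, with adjusted p-values of 0.696, 0.549 and 0.749 (limma). Rab3d of NAc had the largest amplitude of any member in the 4 fits (0.27 ± 0.076, n = 77, peak ZT5.03), with an adjusted p of 0.0747 in limma and 0.0487 with the share as a covariate. Its mean log2 value in NAc was 6.67, the lowest of the members there.

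Of the post-Golgi and ciliary Rabs, 1 of 7 was called in DLS, 3 of 9 in DMS and 3 of 9 in DMS with the share. Over all genes the shares called were 21%, 51.3% and 28.6%. Rab8b (ENSMUSG00000036943, chr9:66843664-66919687), which directs vesicles to the plasma membrane, was the DLS member. Its lowest, median and highest DLS values were 9.27, 9.38 and 9.83 at ZT2, 9.31, 9.62 and 10.04 at ZT6, 9.11, 9.47 and 9.81 at ZT10, 9.07, 9.29 and 9.56 at ZT14, 9.14, 9.39 and 9.56 at ZT18, and 9.04, 9.45 and 9.73 at ZT22. The median was highest at ZT6 and lowest at ZT14. The amplitude was 0.12 ± 0.031 (SE, n = 70), the peak at ZT5.59, the fold 1.19 and the adjusted p 0.00653 (limma). Rab8b kept its call in DLS under each of the 11 alternative settings, with adjusted p-values of 0.00549 to 0.0207. It was not called in DMS without the share (0.051, peak ZT9.80, limma adjusted p = 0.260) or with it. In NAc it was not called either (0.047, peak ZT18.8, 0.731). Rab28 (ENSMUSG00000029128, chr5:41624976-41708157), a ciliary Rab, was called in DMS without the share (0.077, peak ZT17.8, 0.0146) and with it. Its lowest, median and highest DMS values were 9.91, 10.15 and 10.30 at ZT2, 9.82, 10.07 and 10.37 at ZT6, 9.95, 10.08 and 10.29 at ZT10, 10.04, 10.17 and 10.55 at ZT14, 10.04, 10.25 and 10.40 at ZT18, and 9.98, 10.16 and 10.37 at ZT22. The medians of the dark phase stood slightly above those of ZT6 and ZT10. With the share the amplitude was 0.072 ± 0.018 (SE, n = 70), with a peak at ZT21.2 and an adjusted p of 0.00526 (limma), and 0.0534 with equal-sum scaling. Rab34 peaked at ZT6.52 in DMS without the share (0.18, 0.00522) and at ZT7.57 with it (0.17, 0.00995), where the call was lost with time as 6 levels (0.0593). Rab10 peaked at ZT16.4 without the share (0.074, 0.00788) and at ZT19.9 with it (0.047, 0.0330). The Rab10 call with the share was lost with equal-sum scaling (0.290) and without any 1 of 6 libraries, with an adjusted p of up to 0.0562 (without the male ZT10 library of animal 37).

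Of the recycling group 5 of 6 were called in DMS, against 51.3% of all genes. With the share 1 of 6 was called (against 28.6%), and in DLS 1 of 6 (against 21%). The last was Rab14 in both: 0.042 ± 0.013 with a peak at ZT20.9 in DMS with the share (n = 70, limma adjusted p = 0.0311), and 0.048 ± 0.013 with a peak at ZT1.11 in DLS (n = 70, 0.0146). Without the share Rab14 peaked at ZT17.6 in DMS (0.047, 0.0314). Both other calls were lost with equal-sum scaling (0.353 and 0.0935), and that in DMS with the share without either of 2 libraries (up to 0.0590, without the female ZT10 library of animal 18). Of the early endosome group 3 of 6 were called in DMS. With the share 1 of 6 was called, and in DLS 1 of 6, beside the same shares of all genes. These were Rab5a, which starts early endosome fusion, in DMS with the share (0.048, peak ZT21.3, 0.0209, and 0.233 with equal-sum scaling) and Rab21, which takes part in integrin endocytosis, in DLS (0.071, peak ZT19.7, 0.0274, and 0.0624 with time as 6 levels). Without the share Rab5a peaked at ZT16.8 in DMS (0.061, 0.0255). Of the late endosome group 1 of 5 was called in DMS (against 51.3% of all genes). By limma 0 of 5 were called in DMS with the share (against 28.6%) and in DLS (against 21%). In each fit 1 member had an unadjusted p under 0.05, against 4977 of 12101 genes in DMS with the share and 3956 of 11394 in DLS. The largest endosomal amplitudes among the calls in DMS without the share, named after their values were seen, were those of Rab15 (0.15, adjusted p = 0.00264), Rab31 (0.13, 0.00736), Rab9 (0.12, 0.0381) and Rab11a (0.11, 0.0183). With the share they were 0.049, 0.043, 0.054 and 0.026, and none of the 4 was called (limma adjusted p = 0.0611 to 0.489). The median amplitude in DMS was 0.070, 0.067 and 0.061 in the early, recycling and late groups, beside 0.11 over all genes. The median amplitude in DLS ran from 0.033 in the late endosome group to 0.11 in the regulated secretion group, beside 0.067 over all genes.

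**Figure D3:**
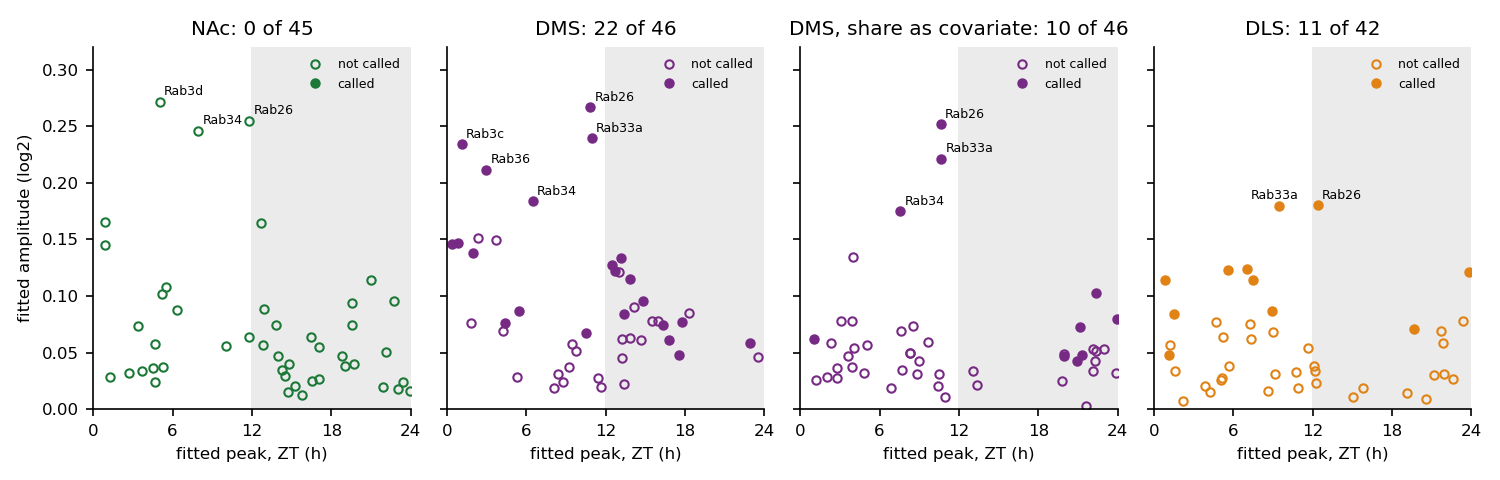
Fitted amplitude (log2) against fitted peak time for each member in NAc (45), DMS (46), DMS with the share as a covariate (46) and DLS (42); filled points were called, grey marks lights off. The called members number 0, 22, 10 and 11, and Rab33a and Rab26 lie at 0.22 to 0.27 with peaks between ZT10.6 and ZT10.9 in both DMS fits.

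With the share as covariate, 7 of the 22 DMS calls stayed, which is 31.8% of the first list and 70% of the second. Those 7 were Rab10, Rab14, Rab26, Rab28, Rab33a, Rab34 and Rab5a. The 4 members called in both DMS with the share and DLS were Rab14, Rab26, Rab27b and Rab33a, which is 40% of the DMS calls and 36.4% of the DLS calls. These regions share 51 animals. How far the calls of all genes overlapped between these fits was not computed. A difference of rhythm between regions was tested directly in a joint limma fit of the 11283 genes in all tables. It called 0 of 42 members, against 0.230% of all genes. At an unadjusted p under 0.05 stood 5 members, against 1886 of the 11283 genes. The smallest adjusted p belonged to Rab14 (0.151) and Rab8b (0.191). For Rab33a it was 0.312, so that its low amplitude in NAc was not shown to differ from those in DMS and DLS.

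Promoter sequences from RefSeq (GRCm38.p6) were matched by symbol for 39 of the 46 members, in 51 windows of 250 bases before a start site. Rab2a, Rab4a, Rab18, Rab26, Rab27b, Rab30 and Rab36 were not matched. Clock transcription factors are known to bind the E-box CACGTG and the D-box TTATGTAA, and CREB the element TGACGTCA. Searched on both strands, CACGTG was in 4 of the 51 member windows (Rab5a, Rab21, Rab23 and Rab27a) and in 6.02% of 32851 windows of all genes. TGACGTCA was in 1 member window (Rab5a) and in 1.55% of all, and TTATGTAA in 0 member windows and in 0.819% of all. The windows of Rab5a and Rab21 are shown because they hold the E-box upstream of a gene that was called, and that of Rab33a because this gene was called in DMS and DLS and holds none of the 3 motifs. Capitals mark the matches, which do not overlap, with their first base 28, 95 and 235 bases before the start in Rab5a and 30 in Rab21. The window of Rab5a is chr17:53478984-53479233 (plus strand), that of Rab21 chr10:115315592-115315841 (minus strand) and that of Rab33a chrX:48519035-48519284 (plus strand).
Rab5a: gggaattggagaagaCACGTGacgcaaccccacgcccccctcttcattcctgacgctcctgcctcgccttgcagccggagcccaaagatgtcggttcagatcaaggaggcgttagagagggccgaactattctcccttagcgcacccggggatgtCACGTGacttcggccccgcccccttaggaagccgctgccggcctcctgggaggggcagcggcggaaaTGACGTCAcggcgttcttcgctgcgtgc
Rab21: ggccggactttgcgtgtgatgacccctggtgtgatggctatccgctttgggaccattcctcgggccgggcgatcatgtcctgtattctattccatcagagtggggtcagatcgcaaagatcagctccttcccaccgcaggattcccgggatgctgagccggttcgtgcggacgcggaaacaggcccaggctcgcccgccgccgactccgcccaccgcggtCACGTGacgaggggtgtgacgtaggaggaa
Rab33a: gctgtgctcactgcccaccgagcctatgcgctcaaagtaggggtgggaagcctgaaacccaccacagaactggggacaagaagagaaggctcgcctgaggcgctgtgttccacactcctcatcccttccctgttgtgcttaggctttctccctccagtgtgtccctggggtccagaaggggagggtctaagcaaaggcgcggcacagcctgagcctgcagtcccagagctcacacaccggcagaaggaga
A match of these letters is a description of the window and does not show that a factor binds there.

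The members' levels moved with the mitochondrial share in DMS. In the fit with the cosine and sex, 22 of 46 members rose with the share (against 39.4% of all genes) and 10 fell (against 39.3%). Slopes are log2 per 10 percentage points. The largest rises were those of Rab18, which acts at the ER and on lipid droplets (0.26 ± 0.015, SE, n = 70), Rab9, which returns receptors from late endosomes to the Golgi (0.26 ± 0.018), and Rab33b, a Golgi Rab of autophagy (0.25 ± 0.022). The largest falls were those of Rab36 (-0.31 ± 0.030), Rab3c (-0.30 ± 0.018) and Rab15 (-0.21 ± 0.015), a Rab of receptor recycling in neurons. The limma adjusted p-values of these 6 slopes lay between 1.50e-25 and 1.54e-15.

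By class, Rab18 ran from 10.57 to 10.98 (median 10.75) in the 37 low-share DMS libraries and from 10.88 to 11.55 (median 11.23) in the 33 high-share ones. Rab3c ran from 13.005 to 13.60 (median 13.28) in the low class and from 12.17 to 13.06 (median 12.74) in the high class. Rab1a, chosen from the 46 members after its values were seen, ran from 11.62 to 11.96 in the low class. In the high class it ran from 11.97 to 12.42, so these ranges did not overlap. How many of all genes had class ranges without overlap was not computed. Marker genes of other cells moved with the share too. All 6 microglial markers and all 5 red blood cell markers rose with it, as did 4 of 6 endothelial and 4 of 6 astrocyte markers (1 fell in each). Of 8 oligodendrocyte markers 2 rose and 3 fell, and of 10 striatal projection neuron markers 5 rose and 4 fell. The 2 measured markers of cortical excitatory neurons and the 2 of choroid plexus had 0 called slopes. The summed microglial level was 12.76 to 13.23 in the low class and 13.17 to 13.76 in the high class, and that of oligodendrocytes 17.13 to 18.00 and 16.83 to 17.52. Their part in the Rab slopes was not tested.

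The split between rises and falls depended on the scaling. With equal-sum scaling, which shifted the median slope of all genes to -0.071, 34 of 46 members were called (against 78.5% of all genes). Of these 14 rose and 20 fell, and 29 of the 32 slopes called before kept their sign. How many of all genes rose or fell under this scaling was not counted. The 6 slopes named above kept their sign and their call. Within the low class 2 members were called (against 1.36% of all genes), 28 of the 32 slopes kept their sign and the members' median slope was 0.046, beside 0.036 over all libraries. Rab3c then had a slope of 0.070 (adjusted p = 0.804). Within the high class 12 were called (against 34% of all genes), 7 up and 5 down, and 27 of the 32 kept their sign, with Rab18 at 0.27 and Rab3c at -0.32.

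**Figure D4:**
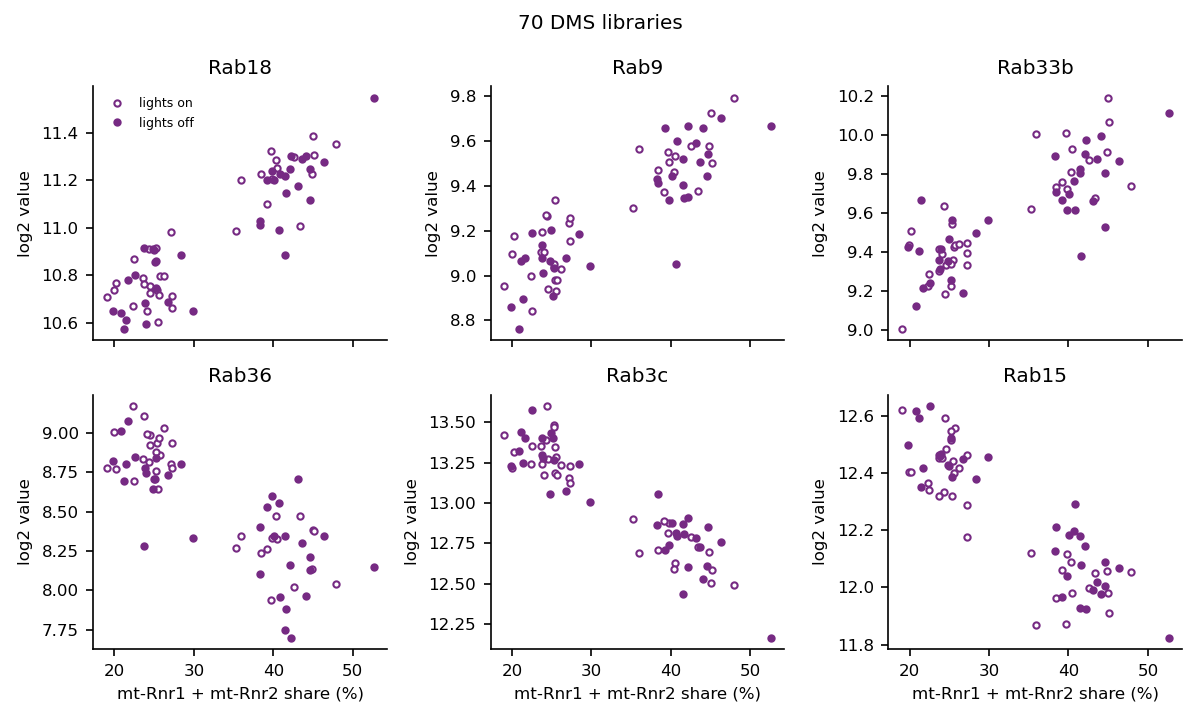
Log2 value against the mt-Rnr1 plus mt-Rnr2 share (%) in the 70 DMS libraries for the 3 members with the largest rise (top) and the 3 with the largest fall (bottom); open points were taken with lights on, filled with lights off. Points form a group at 19.02 to 29.9% and a group at 35.3 to 52.6%, and the median of Rab3c was 13.28 in the first and 12.74 in the second.

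The slopes had the same sign in the other regions for most members. In NAc 22 of 45 members rose with the share (against 31.9% of all genes) and 7 fell (against 31.4%). In DLS 10 of 42 rose (against 21.3%) and 5 fell (against 20.7%). Of the 32 members called in DMS and measured in NAc, 30 had the same sign there and 23 were also called with that sign. Of 31 measured in DLS, 28 had the same sign and 13 were called with it. None of these was called with the opposite sign. How many of all genes agreed in sign, or were called in each region, was not computed. The 12 members called in each region were Rab11a, Rab18, Rab1a, Rab21, Rab2a, Rab33b, Rab5c, Rab8a and Rab9, which rose, and Rab15, Rab3c and Rab6b, which fell. Rab3c had slopes of -0.35 ± 0.043 (SE, n = 77) in NAc and -0.19 ± 0.033 (SE, n = 70) in DLS. Rab33a and Rab26, with the largest rhythms in DMS with the share, had DMS slopes of 0.040 (adjusted p = 0.317) and 0.033 (0.535).

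**Figure D5:**
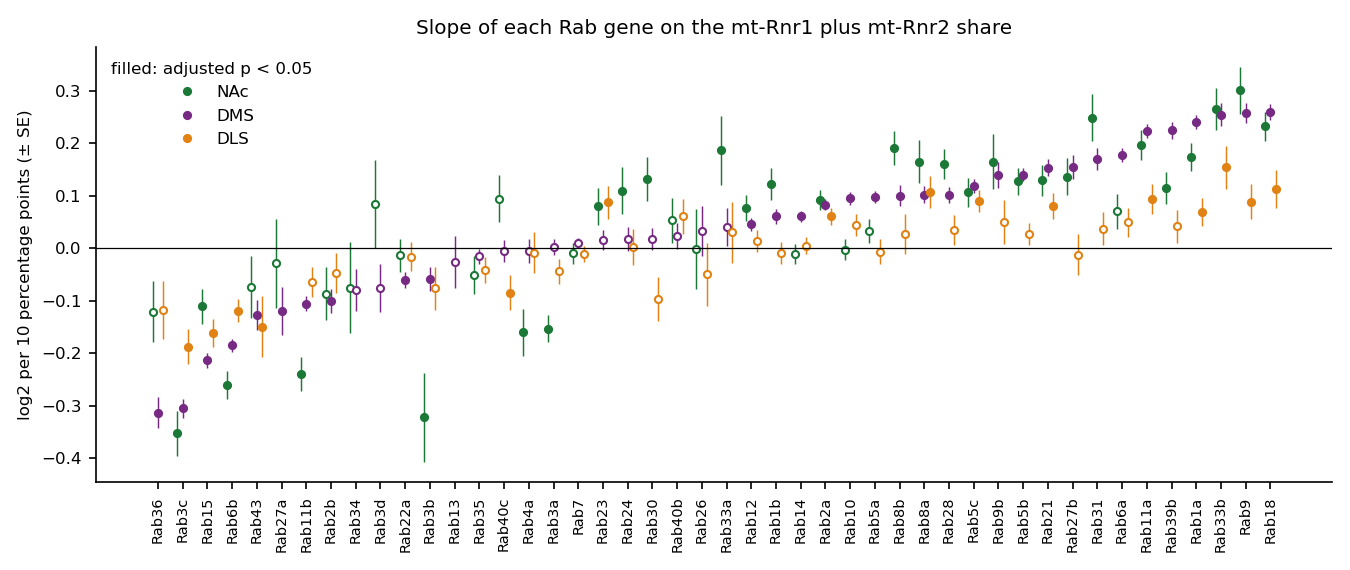
Slope on the share (log2 per 10 percentage points, bars ± SE) of each member in NAc (n = 77), DMS (n = 70) and DLS (n = 70), ordered by the DMS value; filled points were called. Rab36 and Rab3c lie at the low end at -0.31 and -0.30 in DMS, and Rab18, Rab9 and Rab33b at the high end at 0.25 to 0.26.

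Differences between the sexes were small. Limma called 0 of 45 members in NAc (against 0.0758% of all genes), 0 of 46 in DMS (against 0.909%) and 0 of 42 in DLS (against 0.202%). At an unadjusted p under 0.05 stood 1, 4 and 5 members, against 625 of 11867, 1301 of 12101 and 1166 of 11394 genes. The largest difference was that of Rab3b, a vesicle Rab, in DLS. Its mean was 9.49 ± 0.21 (SD, n = 35) in females and 9.65 ± 0.19 (SD, n = 35) in males, a male minus female difference of 0.16 ± 0.048 (SE) with a limma adjusted p of 0.169. In DMS it was 0.10 ± 0.041 (adjusted p = 0.288), and in NAc -0.090 ± 0.12 (0.994). With the share as a covariate, 3 of 46 members were called in DMS (against 8.1% of all genes), each lower in males: Rab1a (-0.077, 0.0153), Rab6a (-0.073, 0.0363) and Rab3a (-0.079, 0.0363). Those of Rab3a in NAc and DLS were 0.023 and 0.036 and were not called. By limma the rhythm differed between the sexes in 0 members of any region (against 0% of all genes in each of NAc, DMS and DLS). At an unadjusted p under 0.05 stood 0, 0 and 5 members, against 475, 459 and 1284 of all genes.

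The proteins that load and unload Rabs are given from lists chosen by role. Chml, an escort protein that presents Rabs for prenylation, peaked near lights on in DLS (amplitude 0.22, ZT0.18, limma adjusted p = 7.03e-05) and in DMS with the share (0.16, ZT23.5, 0.00160). Rabac1, a prenylated Rab acceptor, peaked at ZT11.8 in DLS (0.11, 0.0383) and at ZT12.6 in DMS without the share (0.17, 0.0153), and was not called in DMS with it (0.105). Of the exchange factors, which load GTP, 2 of 35 were called in NAc, 21 of 35 in DMS, 11 of 35 with the share and 5 of 34 in DLS. Over all genes the shares called in these fits were 2.56%, 51.3%, 28.6% and 21%. Rab3ip (Rabin8), an exchange factor of the Rab8 group, peaked in the dark in each region: at ZT20.5 in NAc (0.16, 0.0262), ZT21.0 in DMS with the share (0.20, 2.00e-05) and ZT20.3 in DLS (0.24, 1.24e-05). Rab3gap2 stands in this list although its symbol names a Rab3 GTPase-activating protein, and its activity was not tested. Rab3gap2 peaked at ZT17.8 in DMS with the share (0.11, 1.73e-05) and at ZT17.6 in DLS (0.093, 0.000708), and Dennd4c at ZT21.7 in DMS with the share (0.10, 0.000403).

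Of the GTPase-activating proteins, which switch Rabs off, 1 of 35 was called in NAc, 19 of 35 in DMS, 7 of 35 with the share and 10 of 34 in DLS. Beside these, and beside the effectors below, stand 2.56%, 51.3%, 28.6% and 21% of all genes. Tbc1d24, a synaptic protein, was placed in this list by its family and not by a tested activity. It was called in NAc (0.20, ZT8.04, limma adjusted p = 0.00829), DMS with the share (0.12, ZT9.64, 0.00116) and DLS (0.11, ZT7.91, 0.0205). Tbc1d30 peaked at ZT16.6 in DMS with the share (0.20, 1.18e-07) and at ZT16.1 in DLS (0.093, 0.0340). Tbc1d8b peaked at ZT21.1 (0.21, 0.000848) and ZT21.2 (0.19, 0.0133) in the same 2 fits. Of 40 effectors and kinases, 1 was called in NAc, 26 in DMS, 12 with the share and 9 in DLS. Appl1, an adaptor on early endosomes, peaked after lights on in DMS with the share (0.11, ZT1.26, 1.81e-05) and DLS (0.074, ZT3.75, 0.0129). Dmxl2, a Rab3-linked vesicle protein, peaked at ZT20.0 (0.067, 0.000697) and Optn, an effector of Rab8 in autophagy, at ZT10.3 (0.20, 0.00118) in DMS with the share, and neither was called in DLS (0.765 and 0.845). The median amplitude in NAc, DMS, DMS with the share and DLS was 0.072, 0.092, 0.053 and 0.054 for exchange factors, 0.072, 0.11, 0.047 and 0.070 for GTPase-activating proteins and 0.067, 0.092, 0.064 and 0.057 for effectors, beside 0.075, 0.11, 0.067 and 0.067 over all genes. Of the regulators named from DMS with the share, Appl1 was not called without it (0.026, 0.656) and the others were. No test of a list was made.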

How the data were processed

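Per the submitters' processing notes and series text, reads were checked with FastQC, trimmed with Trimmomatic, and aligned with HISAT2 2.1.0 to mouse Ensembl GRCm38, and HTSeq 0.10.0 (union mode) gave the count of each gene. The notes also list GRCh38, a human build, against the mouse labels. The authors filtered genes and normalised counts with DESeq2 in each region separately, and the deposited values are log2 of those counts plus 1. In DMS and DLS a median of 100% of a library's values were whole reads (tolerance 0.01 reads). In NAc 2.03% were and 9 values lay below 0, so those values had a further adjustment that the labels do not record, and their depth is unknown. The use of strand in counting is not given in the sources used here.

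Symbols, exon lengths and coordinates came from GENCODE M21. Rhythm (24 h cosine and sine plus sex, 2 degrees of freedom), share slopes, sex differences (with time as 6 levels) and region differences were fitted to the log2 values in limma 3.58.1 (R 4.3.3, with version 1.17.8 of data.table) with a variance trend, over every gene listed, and adjusted by Benjamini-Hochberg (threshold 0.05). The share is the percent of the linear sum in mt-Rnr1 and mt-Rnr2. Tables were handled in pandas 2.3.3 and numpy 2.4.6 and plots drawn in matplotlib 3.10.9, under Python 3.11.15. The fits were tested on simulated data. Libraries were grouped by the region, time and sex of their titles. The titles also name the animal, which pairs libraries across regions: the median correlation of residuals within an animal was 0.082 (NAc and DMS, 63 animals), 0.030 (NAc and DLS, 57) and 0.14 (DMS and DLS, 51). Sequencing reads are not independent molecules, so errors are those between libraries.

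Named genes were the members called in NAc, in DLS, or in DMS both without and with the share, the highest per length in each role, the 3 largest slopes of each sign in DMS, and up to 3 genes of each list of Rab regulators with the smallest rhythm p over NAc, DLS and DMS with the share. Values per time are given for the 6 members of smallest adjusted rhythm p over the same fits. The DMS fit without the share did not enter this choice. Other genes were named after their values were seen. The counts of the list of prenylation and the membrane cycle, and 1 of its genes, are not reported here. The members and lists were chosen with earlier results of these data known.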

Additional observations from a re-analysis of the deposited data

How the results depend on the processing

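The count of members with a rhythm in NAc was 0 as reported and 2 with the share as a covariate (Rab26 and Rab3d, against 4.28% of all genes). It was 0 to 1 when each of the 77 libraries was left out in turn, against 260 to 390 of all genes. Rab26 was called in 8 of these fits and Rab3d in 3. In DMS the count was 22, and 11 with a term for the share class (against 25.2% of all genes). With a term for animal numbers of 31 or higher it was 16 (against 31.2%, in place of 51.3%). It was 3 in the low class alone (against 7.83%) and 3 in the high class alone (against 15%), where fewer libraries were fitted. With 1 library left out it was 20 to 28, against 5433 to 6834 of all genes. In DMS with the share it was 10, and 9 to 14 with 1 library left out (against 3161 to 3744 of all genes). In DLS it was 11, 6 with time as 6 levels (against 21.1% of all genes) and 5 with equal-sum scaling (against 13%). With 1 library left out it was 10 to 13, against 2235 to 2603 of all genes. The count of members with a called share slope in DMS was 32 (against 78.7% of all genes). It was 2 in the low class alone (against 1.36%) and 12 in the high class alone (against 34%). The slope of Rab3c turned from -0.30 to 0.070 in the low class. Sex differences of level in DMS went from 0 to 3 members with the share as a covariate. Where fewer libraries do not account for these shifts, the cause was not tested. With limma-voom on the recovered reads, 24 members were called in DMS, 10 in DMS with the share and 10 in DLS. Over all genes the shares were 50.8%, 28.1% and 21.4%. Only genes already called entered the tally of single genes, which kept their call in 259 of 306 recomputed rhythm values. Some settings lost 0 of 30 values each: no sex term, a log2 mean of at least 6, robust estimation, and plus 8 before the log2. The 47 losses included 15 of 30 values with equal-sum scaling, 8 of 30 with time as 6 levels, and 8 of 11 in each share class alone. With the animal as a replicate block, which pairs libraries of 1 animal, the region test still called 0 members, and 31 of all genes in place of 26. In NAc no limit from depth can be given.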
